A study of Neurospora crassa with 86 samples.

Results

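In the filamentous fungus Neurospora crassa, 231 genes were at their lowest when arginine was the nitrogen source, and stood clear of every other medium tested. They were chosen in wild type from the deposited joint table of FPKM, the fragments of a transcript scaled to its length and to the depth of its library. Of its 9598 entries, 5989 averaged at least 5 FPKM in full medium. Of those, 1245 had their lowest mean of log2(FPKM + 1) on arginine. The 231 are the entries among them whose arginine mean lay at least 1 log2 unit below the next lowest of 14 wild type groups. Because the wild type levels chose these genes, their levels in wild type are given as a description, with no test. The 231 entries hold 224 single genes and 7 merged sets of neighbouring genes. A gene symbol was given for 35 of them, and the other 196 are known here by identifier alone.

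Mycelia were grown for 24 h at 25 °C in constant light in minimal medium with 2% sucrose, then washed, and RNA was taken after 4 h on the test medium. The arginine group was wild type (strain FGSC 2489) with 344 mM arginine as nitrogen source and 2% sucrose. Deletion strains were Δnit-2 on nitrate, isoleucine, proline, tryptophan and full medium, Δamn-1 on isoleucine, proline, tryptophan and mannose, Δnit-4 on nitrate and without nitrogen, and Δnmr without nitrogen and in full medium. The other wild type groups had 112 mM alanine, 200 mM glycine, 50 mM glutamate, glutamine, isoleucine, proline, tryptophan, nitrate or ammonium, or no nitrogen source, all with 2% sucrose. The carbon starvation medium had no sucrose, and the mannose medium, also that of Δamn-1, had 2 mM mannose in place of sucrose. Both held 25 mM ammonium nitrate, and full medium held 2% sucrose with 25 mM ammonium nitrate. There were 5 wild type libraries in full medium, 6 without nitrogen and 3 in each remaining group, or 86 libraries in 27 groups. The labels call the replicates biological.

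As background, Neurospora takes up arginine and breaks it down through arginase and ornithine transaminase to glutamate, so that arginine can serve as a nitrogen source. NIT-2 is the GATA-type activator of genes for poorer nitrogen sources, NMR is the negative regulator that holds it back, and NIT-4 is the activator of nitrate assimilation. The mitochondrial respiratory chain begins with complex I, a NADH dehydrogenase with many small subunits encoded in the nucleus. The vacuole, where Neurospora stores arginine, is acidified by the vacuolar ATPase.

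Estimated depth ran from 14660000 to 16120000 fragments per arginine library and from 8100000 to 15880000 in wild type full medium, within 6890000 to 19110000 over all libraries. The transcripts of the deleted genes were lower in Δnit-2 (3.30 to 6.61 FPKM, against 34.99 to 73.7 in wild type on the same media), in Δamn-1 (0.274 to 5.48 against 8.62 to 37.1, with NCU00445 taken as amn-1 from background knowledge) and in Δnmr (1.28 to 2.80 against 8.69 to 26.5). What was left of NCU00445 in Δamn-1 differed by medium. It was 0.274 to 0.392 FPKM on mannose (wild type 23.5 to 37.1) and 1.68 to 2.29 on isoleucine (11.5 to 13.8). On proline it was 4.39 to 5.08 FPKM (wild type 8.94 to 10.1), and on tryptophan 4.66 to 5.48 (8.62 to 10.4). In the libraries labelled Δnit-4 the nit-4 transcript was not lower (2.72 to 8.56 FPKM, against 2.69 to 6.10 in wild type). Of 6 genes taken as markers of conidia, the asexual spores, all were above 0 in every arginine library, and con-13 was at 0 in some full medium library. Their sum was 1785 to 2484 FPKM on arginine and 1088 to 2909 in full medium. Most of it was ccg-1, at 1772 to 2468 and 999 to 2876 FPKM, so here the sum mainly follows that gene. The spore coat hydrophobin eas was at 2.86 to 3.19 FPKM on arginine and 23.4 to 85.1 in full medium, and con-6 and con-8 also lay lower on arginine without overlap. con-10 lay higher without overlap, at 6.51 to 10.4 FPKM on arginine and 1.30 to 3.21 in full medium. In the 13 comparisons of a deletion strain with wild type, the marker sum overlapped between the groups in 9, and lay higher in the deletion strain in 2 and lower in 2. The part of conidia in the levels below was not tested.

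Together the 231 genes took 0.496 ± 0.134% of all FPKM in arginine libraries and 2.64 ± 0.0614% in full medium (SD, n = 3 and 5). The single arginine libraries stood at 0.448, 0.392 and 0.647%. In the 39 deletion libraries the share was 2.52 to 5.46%, and in the 44 other wild type libraries 2.08 to 7.51%, so arginine did not overlap with any other medium. The rule chose these genes for their low wild type means on arginine, so this gap follows from the choice and is only described. Glutamine came nearest with 2.21 ± 0.122%, and mannose was farthest with 7.21 ± 0.429% (n = 3 each). Such shares are of RNA in a culture: fewer cells of a kind and less RNA per cell cannot be told apart.

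**Figure D1:**
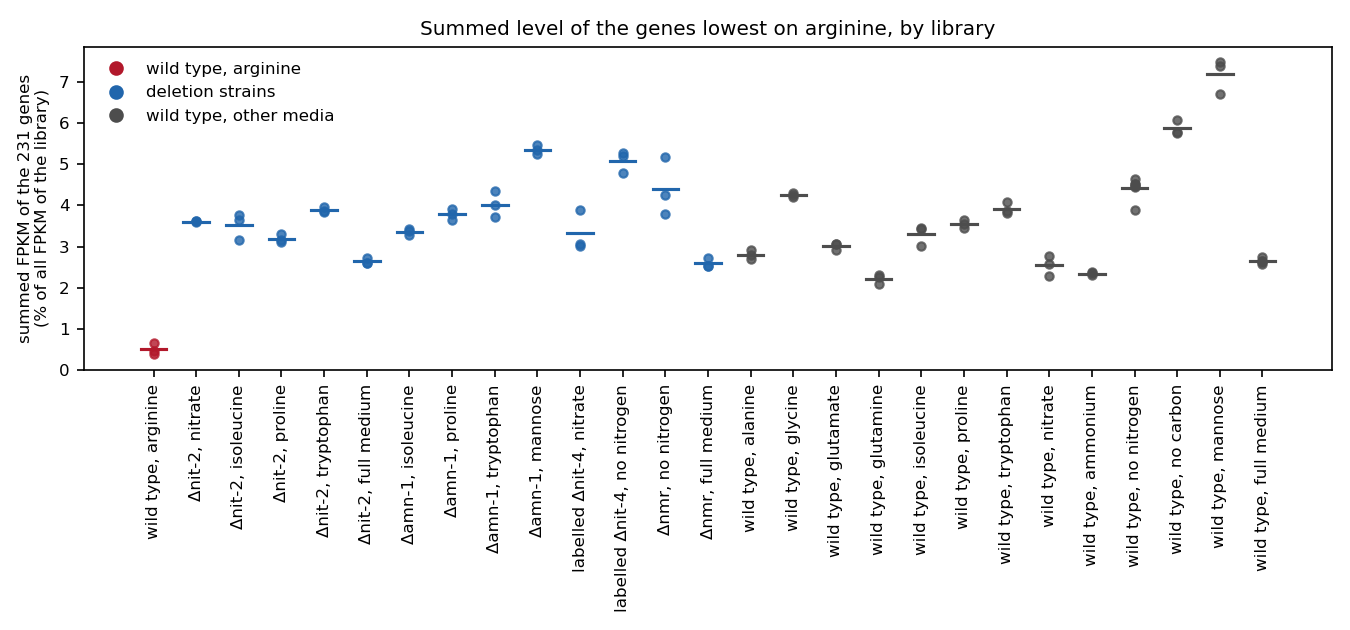
Summed FPKM of the 231 genes as a percent of all FPKM (y axis) for each of 86 libraries (points) in 27 groups (x axis), with group means as bars. The 3 arginine libraries lie between 0.392 and 0.647%, below every other library, as the choice of genes by their wild type levels favours.

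The arginine libraries were not alike for these genes. Library 3 was the highest of the 3 for 196 members and library 2 the lowest for 177. Without library 3 the rule would take 289 genes, and without library 2 it would take 189, of which 185 are among the 231. All 3 arginine libraries lay below all 44 other wild type libraries for 227 members, the exceptions being ccg-13, acu-8, NCU04237 and acw-12. They also lay below all 39 deletion libraries for 211 members. The rule did not use those libraries. It did place wild type on the same media above arginine, so this count is not independent of the rule. Neither the 227 nor the 211 was counted over other entries, so both are given as a description.

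The distance from arginine to the next lowest medium had a median of 1.29 log2 units and reached 2.86. It was under 1.5 for 160 members and at least 2 for 20. Across members the arginine mean was 0.538 to 232 FPKM (median 5.94), and the full medium mean 5.13 to 1352 FPKM (median 29.2). The difference, arginine minus full medium, was between -4.53 and -1.07 log2 units, with a median of -1.98. Over the 5989 entries it was -0.02. In limma's test over 8558 entries all 231 were lower on arginine than in full medium, where 15% of all entries were lower, but the rule fixes this count.

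The widest distances belonged to genes with no symbol. NCU02932 had 0.472, 0.265 and 0.877 FPKM on arginine, and 23.4, 21.0, 23.9, 24.3 and 27.7 FPKM in full medium. Its next lowest group was glutamine at 10.3 ± 2.76 FPKM, and on mannose it reached 489 ± 113 FPKM (SD, n = 3 each). The arginine values rest on 11 to 42 estimated fragments per library. NCU01107 stood at 1.99, 1.81 and 7.10 FPKM on arginine against 54.1 ± 10.2 FPKM in full medium (SD, n = 5). Here library 3 was well above the other two, and still below all other wild type libraries, the lowest of which had 15.7 FPKM. NCU08669 had 10.5, 8.41 and 23.4 FPKM on arginine and 115 ± 5.56 FPKM in full medium (n = 5), with no other wild type library under 77.1 FPKM. NCU09886 and NCU06448 completed the 5 widest, at 3.76 ± 1.56 and 11.7 ± 2.89 FPKM on arginine (n = 3) and 36.4 ± 5.84 and 93.9 ± 7.13 FPKM in full medium (n = 5).

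At the boundary of the rule lay NCU11402, NCU07921 and fkr-3, each with a distance of 1.00. The nearest genes left out were ro-12, NCU02998 and nuo20.1, whose distances of 0.998, 0.997 and 0.997 missed it narrowly. The last, a complex I gene, had 73.6 FPKM on arginine and 207 FPKM in full medium.

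**Figure D2:**
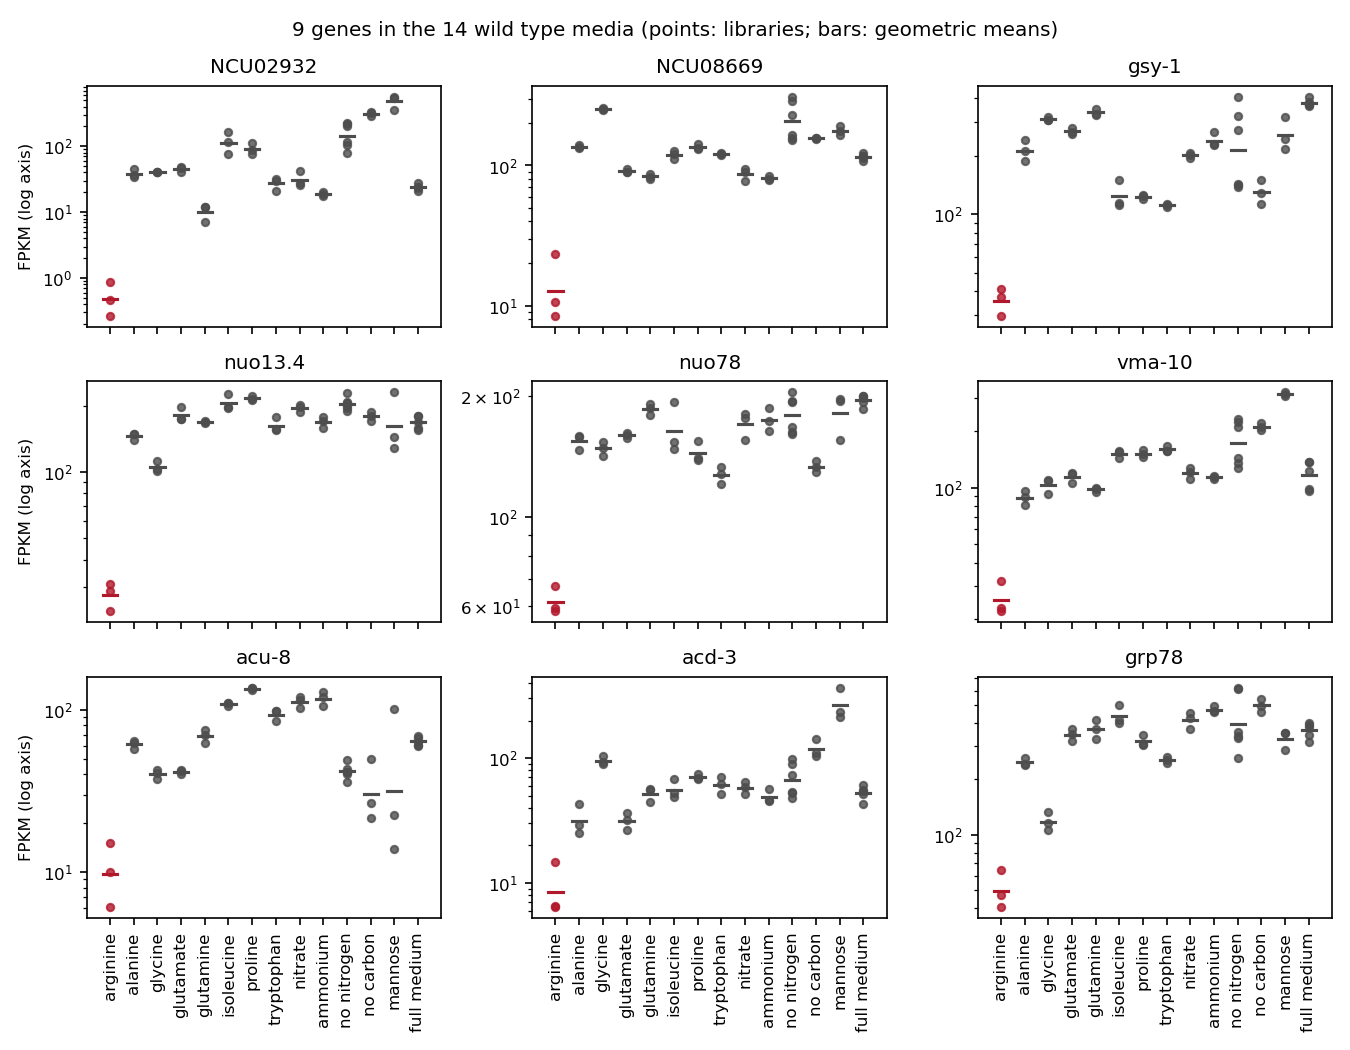
FPKM (y axis, log scale) of 9 of the 231 genes in every wild type library (points) of 14 media (x axis), with geometric means as bars and arginine at the left. Arginine lies under the other media in each panel, except that acu-8 in 1 mannose library (13.9 FPKM) is below its highest arginine library (15.1 FPKM).

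Complex I gave 6 of the 35 members with a symbol, named nuo with the mass of the subunit. nuo13.4 (supercontig 12.5, 3008525 to 3009870) had 28.9, 23.3 and 30.9 FPKM on arginine, and 169, 159, 154, 180 and 179 FPKM in full medium. Its next lowest medium was glycine at 105 ± 5.81 FPKM (SD, n = 3). nuo78 (supercontig 12.2, 2512545 to 2516036) and nuo24 (supercontig 12.5, 3114809 to 3116475), which encode iron-sulfur subunits of the peripheral arm, had 61.4 ± 4.94 and 52.3 ± 12.8 FPKM on arginine (n = 3), against 195 ± 6.04 and 198 ± 11.9 FPKM in full medium (n = 5). For nuo78 the other 13 groups spanned only 0.61 log2 units, so its distance of 1.04 to arginine was wider than all the rest of its variation. nuo14, nuo20.9 and nuo21 averaged 15.3, 68.3 and 45.9 FPKM on arginine and 80.7, 236 and 125 FPKM in full medium.

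Many of the other nuclear complex I genes, though not all, were low on arginine as well. Of 29 tested entries with a nuo symbol, 18 were lower on arginine than in full medium at an adjusted p under 0.05 and 1 log2 unit or more, and 0 were higher. With the 6 members set aside, 12 of 23 were lower, where 15% of all tested entries were, or 12.6% of those outside the 231. The median difference of the 29 was -1.28 log2 units, against 0.01 over all tested entries. Arginine was the lowest of the 14 media for 24 of the 29, among them the 6 members, for which the rule fixes it. Of the other 23 it was the lowest for 18 (78.3%), against 19.3% of all tested entries outside the 231. Among genes outside the 231, nuo10.4 had the widest difference, with 47.2 ± 5.63 FPKM on arginine (n = 3) and 207 ± 12.6 FPKM in full medium (n = 5), -2.11 ± 0.16 log2 units (SE, limma adjusted p = 2.9e-19). The narrowest was the merged entry of nuo12.3 and NCU03094, at 213 ± 6.01 and 214 ± 15.7 FPKM. nuo51, the subunit that binds NADH and FMN, was 140 ± 3.51 FPKM on arginine and 167 ± 11.8 FPKM in full medium, a difference of -0.25 ± 0.09 (SE) that did not reach 1 log2 unit.

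Among 10 genes of complexes III and IV, cytochrome c and ATP synthase, 2 were lower: cyc-1, which encodes cytochrome c (338 ± 59.4 FPKM on arginine, 1139 ± 43.2 FPKM in full medium), and cox-6, a cytochrome oxidase subunit (88.3 ± 6.93 and 226 ± 20.8 FPKM). For 0 of these 10 was arginine the lowest of the 14 media. The difference between this list and complex I was not tested. Of 19 genes of mitochondrial protein import 0 were lower and 2 were higher, with a median of 0.50 log2 units. 8 ribosomal protein genes had 0 calls at a median of -0.04, and 30 proteasome genes had 3 higher, 0 lower and a median of 0.47. Of all tested entries 15% were called lower and 17% higher, so the calls in these small lists are given as a description. At an unadjusted p under 0.05 in limma, without a limit on size, 27 complex I genes, 8 genes of the later complexes, 1 import gene, 0 ribosomal protein genes and 0 proteasome genes were lower. By the same measure 13 import genes and 19 proteasome genes were higher. Such differences were common: of all 8558 tested entries, 3061 were lower and 3326 higher by it.

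tca-16, named for the tricarboxylic acid cycle, had 51.6, 49.3 and 46.5 FPKM on arginine and 176 ± 11.7 FPKM in full medium (SD, n = 5). sod-2, the mitochondrial superoxide dismutase, was at 6.99 ± 1.73 FPKM on arginine, with glutamine and full medium next and level with each other (19.1 ± 1.29 and 19.2 ± 0.591 FPKM). Its highest medium was tryptophan at 57.0 FPKM.

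The mitochondrial genome contributed 3 of its 6 entries with at least 5 FPKM in full medium: NCU16003 and the merged entries of NCU16006 with NCU16007 and of NCU16008 to NCU16012. Mitochondrial transcripts made up 0.00352 to 0.00736% of FPKM in arginine libraries and 0.00858 to 0.0210% in full medium. In 39 libraries, all of those on ammonium, nitrate, isoleucine, proline or tryptophan in wild type and mutants, this share was 0.0464 to 0.174%, and in the other 47 it did not exceed 0.0284%. The part of this split between libraries in the low values of the 3 entries was not tested.

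vma-10, which encodes a stalk subunit of the vacuolar ATPase, had 23.0, 22.0 and 31.9 FPKM on arginine and 118 ± 20.3 FPKM in full medium (n = 5). Alanine was next at 88.9 ± 7.77 FPKM. Of 14 vacuolar ATPase genes 3 were lower: vma-10, vma-8 (25.2 ± 2.98 against 72.4 ± 7.72 FPKM, -1.49 ± 0.09 log2 units, limma adjusted p = 4.1e-22) and vma-9 (49.7 ± 7.98 against 114 ± 9.81 FPKM, -1.19 ± 0.12, adjusted p = 4.6e-14; SD for FPKM, n = 3 and 5, SE for differences). The rule fixes the place of vma-10. Of the other 13, 2 (15.4%) were lower, near the 12.6% of all tested entries outside the 231. 0 of the 14 were higher and the median was -0.68. Arginine was the lowest medium for 8 of the other 13 (61.5%, against 19.3% of tested entries outside the 231), while vma-3, vma-5 and vph-1 had differences of 0.02, 0.09 and 0.29 log2 units.

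**Figure D3:**
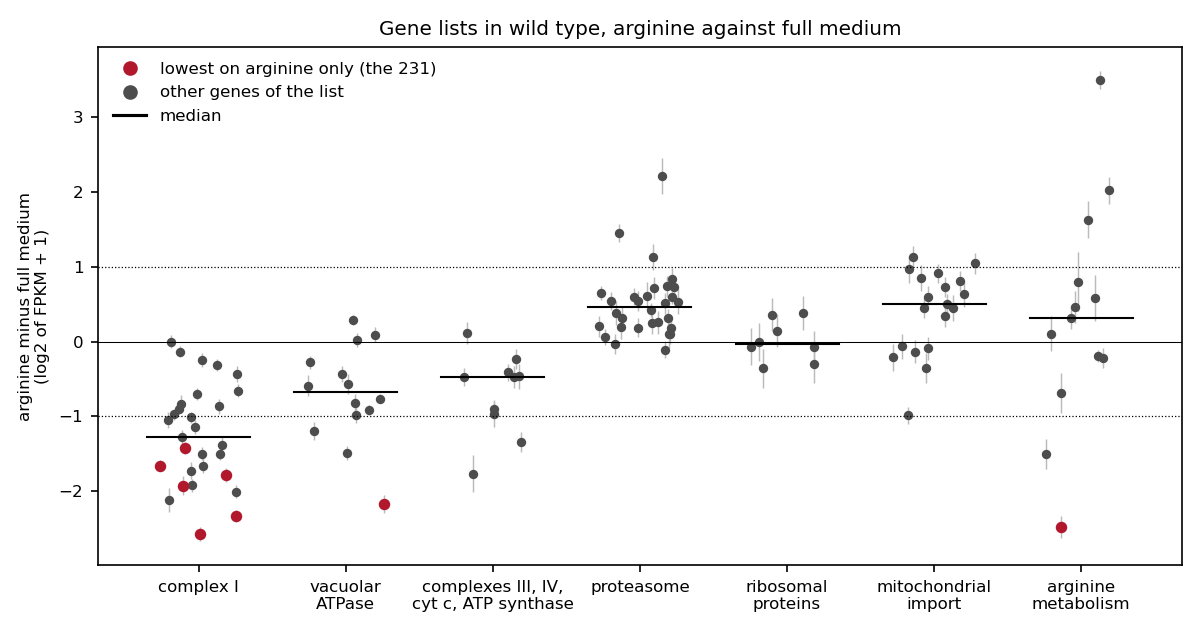
Difference between arginine and full medium in wild type (y axis, log2 of FPKM + 1) for the genes of 7 lists (x axis), with limma's SE as error bars, medians as black bars and genes of the 231 in red. Complex I has a median of -1.28 with 18 of 29 genes lower, and proteasome and import genes have medians of 0.47 and 0.50.

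Of arginine synthesis, the merged entry of arg-14 with its neighbour NCU11370 was a member. arg-14 encodes acetylglutamate synthase, the enzyme that starts the path to ornithine. The entry had 8.42, 10.05 and 11.3 FPKM on arginine, and 63.3, 60.0, 56.0, 57.5 and 59.5 FPKM in full medium. In the per-sample values, which keep both genes apart, arg-14 alone was 7.44 ± 0.590 FPKM on arginine and 34.8 ± 0.707 FPKM in full medium (n = 3 and 5). In the list of 13 arginine genes arg-1, argininosuccinate synthase, was also lower (184 ± 34.2 against 516 ± 7.24 FPKM). arg-4 and the breakdown genes aga-1 (arginase, 521 ± 77.7 against 127 ± 7.50 FPKM) and ota (ornithine transaminase, 1124 ± 107 against 98.5 ± 4.08 FPKM) were higher on arginine. The other 8 were not called.

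Several members encode enzymes and organelle proteins that handle fats, acetate and peroxides. The other genes of these families were not examined as a list. The acyl-CoA dehydrogenase gene acd-3 had 6.50, 6.47 and 14.8 FPKM on arginine, 53.2 ± 6.65 FPKM in full medium (n = 5) and 272 ± 82.8 FPKM on mannose (n = 3). Its relative acd-1 was at 5.23 ± 0.446 FPKM on arginine, and carbon starvation was its highest medium at 179 FPKM. acu-8, which encodes acetyl-CoA hydrolase, had 9.96, 6.11 and 15.1 FPKM on arginine and 63.9 ± 3.77 FPKM in full medium. Carbon starvation was its next lowest medium (32.5 ± 14.9 FPKM) and proline its highest (135 FPKM). acu-9, the malate synthase of the glyoxylate cycle, averaged 9.97 ± 1.34 FPKM on arginine and 55.6 ± 11.6 FPKM in full medium. pex11, a gene of peroxisome division, averaged 9.67 ± 3.07 against 37.2 ± 4.79 FPKM, and the catalase gene cat-1 averaged 4.16 ± 1.04 against 19.4 ± 4.02 FPKM. For acu-9, pex11 and cat-1 the mannose means were 465, 307 and 172 FPKM.

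gsy-1, glycogen synthase, lay -3.36 log2 units from full medium. It had 37.5, 29.8 and 41.0 FPKM on arginine, and 369, 372, 365, 405 and 380 FPKM in full medium. Full medium was its highest group, and tryptophan the next lowest after arginine at 111 ± 2.43 FPKM (n = 3). gla-1, a secreted glucoamylase that releases glucose from starch, was at 5.40 ± 0.934 FPKM on arginine, 20.8 ± 2.22 FPKM in full medium and 107 FPKM in carbon starvation.

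Among folding factors, grp78, the chaperone of the endoplasmic reticulum known as BiP, had 47.2, 40.8 and 64.0 FPKM on arginine, and 389, 383, 399, 318 and 346 FPKM in full medium. Glycine was its next lowest medium with 132, 115 and 106 FPKM, and these media did not overlap. fkr-2, of the FK506-binding proteins that help proteins fold, had 129, 107 and 158 FPKM on arginine and 579 ± 64.5 FPKM in full medium. fkr-3, of the same family, was a weak gene at 2.38 ± 0.534 and 6.74 ± 0.891 FPKM.

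Several members act at the cell surface. The anchored cell wall protein gene acw-4 had 14.8, 11.9 and 35.8 FPKM on arginine and 72.0 ± 21.8 FPKM in full medium, and acw-12 had 6.00, 6.30 and 13.1 FPKM against 24.7 ± 1.64 FPKM. In both, library 3 was more than the sum of the other two. ncw-6, for a non-anchored wall protein, was at 2.31 ± 0.644 and 11.9 ± 4.18 FPKM. gpit-1, which by its name serves in attaching glycolipid anchors to proteins, was at 9.10 ± 1.99 FPKM on arginine and 36.8 ± 2.23 FPKM in full medium, a group in which its libraries varied little. ccg-13, a clock-controlled gene, was the most variable member: 1.46, 1.48 and 12.96 FPKM on arginine, 30.5, 41.9, 42.4, 104 and 17.9 FPKM in full medium, and a mean of 5214 FPKM on tryptophan. Of its 44 other wild type libraries 6 were at or below its highest arginine library.

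al-2, phytoene synthase of the carotenoid path, had 33.1, 31.4 and 27.9 FPKM on arginine, and 167, 178, 178, 127 and 124 FPKM in full medium. Glutamine was next lowest at 93.2 FPKM and glycine highest at 454 FPKM. The serine/threonine kinase genes were expressed at low levels with little spread, as in stk-32 (3.21 ± 0.498 FPKM on arginine, 9.94 ± 0.715 FPKM in full medium) and in stk-33 (4.02 ± 0.703 and 12.2 ± 0.656 FPKM). csy, npd-2, dpm, mob1-2, nup-9 and cmc averaged 3.58, 12.1, 19.2, 3.80, 5.05 and 3.93 FPKM on arginine, and 20.5, 52.1, 73.6, 13.5, 12.7 and 12.2 FPKM in full medium.

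Away from arginine the members varied about as much as other genes. The range of means over the other 13 wild type groups had a median of 2.08 log2 units, against 1.86 for the 5989 entries, and 11.3% of members stayed within 1 unit against 13.9%. For 57 members the distance to arginine was wider than that whole range. NCU02532, with a range of 0.39, and nup-9, with 0.41, were the steadiest, and ccg-13 (8.20), NCU02888 (6.90) and NCU07273 (6.55) the least steady. Mannose was the highest medium of 97 members (42.0%, against 16.7% of the 5989 entries). Glycine followed with 31, a smaller share of members than its 20.2% of the 5989 entries. Carbon starvation had 28 and proline 23, larger shares than their 8.70% and 7.98% of those entries. Glycine was the next lowest medium for 46, tryptophan for 41 and glutamine for 39 members (19.9, 17.7 and 16.9%, against 17.6, 10.2 and 5.78% of the 5989 entries). Applied to each of the other media in turn, the same rule took 141 genes on mannose, 36 on glycine, 23 in carbon starvation, 10 on tryptophan, 5 on glutamine, 2 without nitrogen, 1 on proline and 0 in the rest.

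The 224 single genes had a median length of 2005.5 bp (quartiles 1638 and 2578 bp), against 2423 bp (1796 and 3341 bp) for all 5857 single genes with at least 5 FPKM in full medium. Of the members 14.7% were longer than 3000 bp, against 33.0% of that set. The 1213 single genes lowest on arginine by any amount lay between, with a median of 2258 bp. FPKM is already scaled to length, and the part of length in the choice of the genes was not tested.

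**Figure D4:**
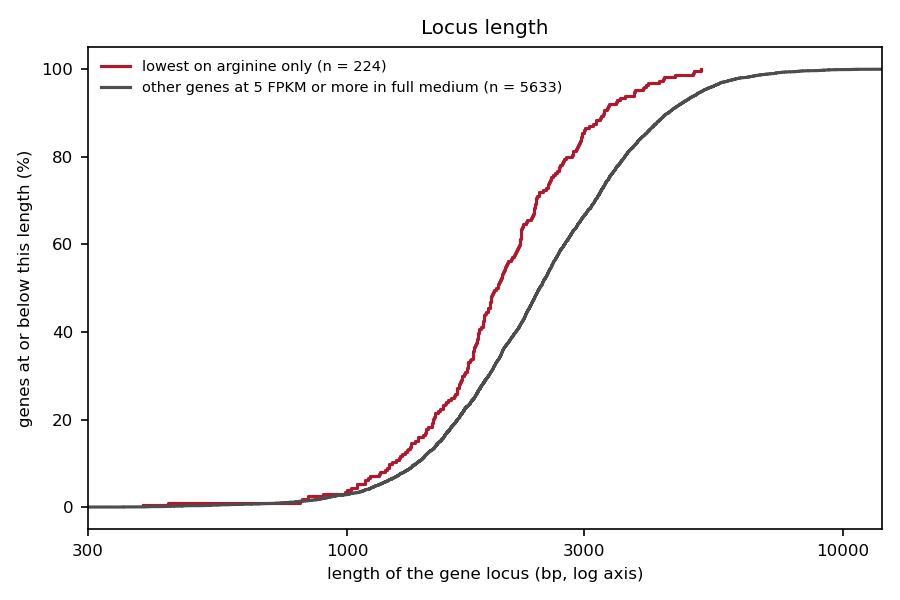
Cumulative share of genes (y axis, percent) by length of the gene locus in bp (x axis, log scale) for the 224 single-gene members and the other 5633 single genes with at least 5 FPKM in full medium. The members' curve lies to the left over most of its course, with a median of 2005.5 bp.

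The members were spread over all 7 chromosomes, at 2.21% of entries with at least 5 FPKM on chromosome III and 4.40% on chromosome IV. As direct neighbours in gene order 26 members (11.3%) formed 12 runs, while 4.76% of the other 5758 entries with at least 5 FPKM had a member directly beside them. Of these runs 10 were pairs, 1 of them the merged mitochondrial entries. Runs of 3 were ncw-6, al-2 and NCU00584 (supercontig 12.1, 7917286 to 7926022) and csy, pex11 and npd-2 (supercontig 12.6, 873510 to 880994). In the second run tryptophan was the next lowest and mannose the highest medium for all 3 genes.

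The deletion strains were not grown on arginine, and their libraries did not enter the rule. Their wild type counterparts did, as media that had to lie above arginine. All 231 members passed the filter on low values and were tested by limma. In 13 comparisons of a deletion strain with wild type on the same medium, 116 members were called at least once and 115 never. The 248 calls were 178 lower and 70 higher in the deletion strain. Of 61 members called more than once, 38 moved the same way each time. These totals were not counted over all tested entries, so they are given as a description. Shares beside all entries are given below for each comparison.

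**Figure D5:**
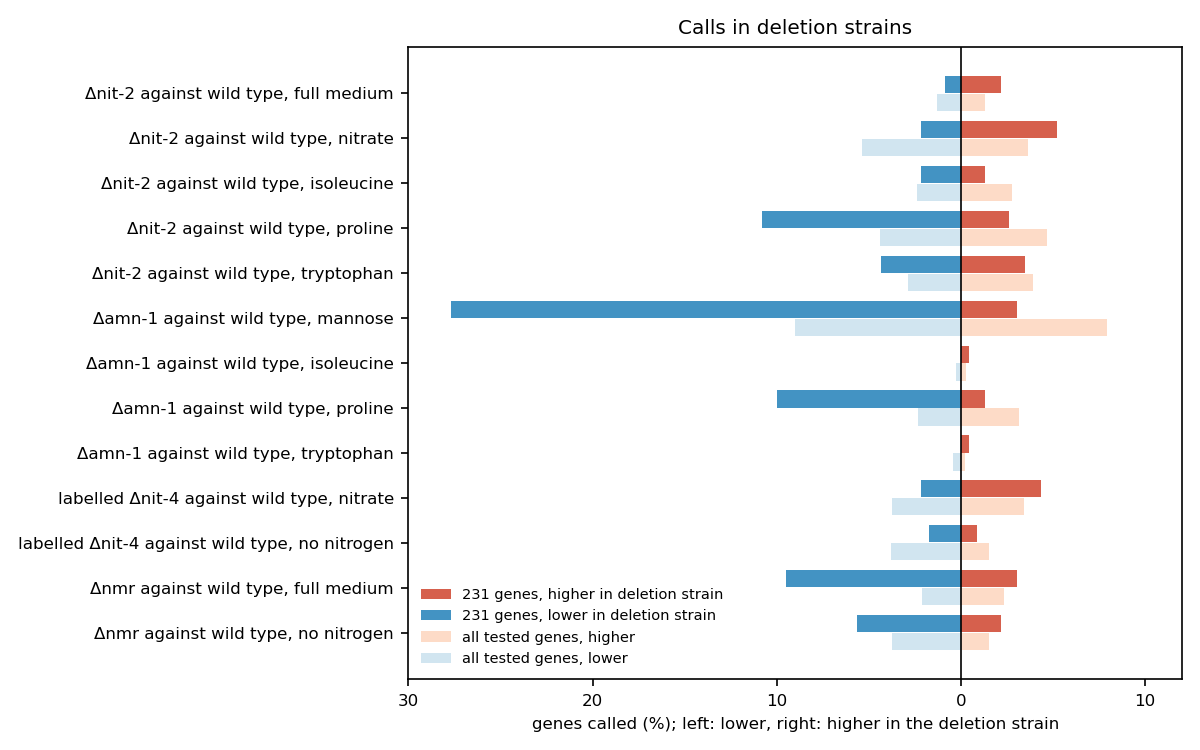
Share of the 231 genes (dark bars) and of all 8558 tested entries (pale bars) called lower (left) or higher (right) in a deletion strain than in wild type on the same medium, in percent, for 13 comparisons. The longest bar is Δamn-1 on mannose, where 27.7% of the 231 genes were lower against 8.99% of all tested entries.

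The comparison with the most calls was Δamn-1 on mannose. There 64 (27.7%) were lower and 7 (3.03%) higher than in wild type, where 8.99% and 7.91% of all tested entries were. The median difference was -0.50 log2 units over members and -0.04 over all entries. Of the 64, 46 were members with mannose as their highest wild type medium, a grouping that shares the wild type mannose libraries with this comparison. NCU06597 had 26.3, 24.2 and 32.3 FPKM in Δamn-1, and 532, 324 and 537 FPKM in wild type, a difference of -3.997 ± 0.30 log2 units (SE, limma adjusted p = 1.5e-17). NCU04266 had 18.5, 16.5 and 22.1 FPKM against 190, 170 and 319 FPKM (-3.46 ± 0.30, limma adjusted p = 1.9e-15). The strains did not overlap in either gene.

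cat-1 fell to 27.3, 21.8 and 26.2 FPKM in Δamn-1 on mannose, against 210, 119 and 188 FPKM in wild type (-2.70 ± 0.25, limma adjusted p = 1.6e-14). gsy-1 had 84.4, 109 and 101.1 FPKM against 219, 321 and 246 FPKM (-1.40 ± 0.19, limma adjusted p = 4.6e-09), and acu-9 had 136, 96.5 and 112 FPKM against 355, 685 and 355 FPKM (-1.95 ± 0.26, limma adjusted p = 2.2e-09). Each of these genes was lower in every Δamn-1 library than in every wild type one. csy, acw-12, ncw-6, pex11, fkr-2, acd-3 and the arg-14 entry were lower too, by -2.14 to -1.12 log2 units. grp78 was not: it had 507, 480 and 589 FPKM in Δamn-1 and 287, 353 and 355 FPKM in wild type, and was not called. The largest difference among members, of ccg-13, was the least even: 8.08, 5.58 and 17.8 FPKM in Δamn-1 against 938, 24.0 and 1926 FPKM in wild type, -5.10 ± 0.91 (limma adjusted p = 2.3e-06). Wild type mannose library 2 stood apart here and in acu-9 and fkr-2. Without it the ccg-13 difference was -7.02, and 58 members were lower. On the higher side NCU04850 and NCU04805 led, with 2.61 ± 0.26 and 2.59 ± 0.31 log2 units. The 6 conidia markers were above 0 in all of these libraries and summed to 38585 to 46300 FPKM in Δamn-1 and 49869 to 121468 FPKM in wild type. con-8, con-10, con-13 and ccg-1 were lower in Δamn-1 without overlap. eas itself was higher, at 19138 to 25177 FPKM in Δamn-1 and 5838 to 8488 FPKM in wild type, and the part of spores in the members' differences was not tested.

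On proline, 23 members (9.96%) were lower in Δamn-1 than in wild type and 3 (1.30%) higher, against 2.31% and 3.14% of all entries. Of the 64 members lower on mannose, 9 were among these 23 (14.1% of the 64, 39.1% of the 23). NCU04805, higher in Δamn-1 on mannose, was here the lowest of all: 12.9, 9.91 and 6.48 FPKM in Δamn-1, against 56.9, 71.3 and 84.2 FPKM in wild type (-2.76 ± 0.31, limma adjusted p = 1.7e-10). The merged entry of NCU07317 and NCU07318 was also lower (144 ± 23.9 against 796 ± 95.0 FPKM, -2.47 ± 0.34), and NCU09409 was higher (36.8 ± 4.02 against 7.99 ± 2.00 FPKM, 2.09 ± 0.34). al-2 had 97.3, 85.2 and 67.5 FPKM against 168, 185 and 169 FPKM (-1.07 ± 0.19, limma adjusted p = 1.1e-05), and fkr-3, cat-1 and ncw-6 were also lower. Isoleucine and tryptophan gave 1 call each, both higher in Δamn-1 (0.433% of members in each, against 0.584% and 0.643% of all entries called either way). These were NCU02888 on isoleucine (298 ± 199 against 82.0 ± 64.3 FPKM) and NCU09409 on tryptophan (mean 71.8 against 24.4 FPKM, SD 50.2 in Δamn-1; n = 3 each), genes with wide spread. At an unadjusted p under 0.05 in limma, 16 and 36 members differed on these media. No share over all tested entries stands beside these counts, so they are given as a description. On proline the conidia markers summed to 590.0 to 857 FPKM in Δamn-1 and 1555 to 1639 FPKM in wild type, without overlap, and 5 of 6 were above 0 in every Δamn-1 library. ccg-1 was the 1 marker of the 6 whose groups did not overlap, and the part of spores was not tested.

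The effect of the amn-1 deletion differed between media by a test of the difference itself. Against the effect on mannose, 81 members differed in that on proline, 73 in that on isoleucine and 68 in that on tryptophan (35.1%, 31.6% and 29.4%, against 22%, 17.1% and 16.9% of all entries). For csy, the effect on isoleucine was -0.01 and that on mannose -2.14, a difference of 2.13 ± 0.24 (limma adjusted p = 2e-10). The NCU00445 transcript left in Δamn-1 was lowest on mannose, and its part in these differences was not tested.

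In Δnit-2, acw-12 was higher than in wild type on all 5 media. On nitrate it had 381, 431 and 441 FPKM in Δnit-2 and 79.6, 51.0 and 62.6 FPKM in wild type, 2.70 ± 0.24 log2 units higher (limma adjusted p = 3.6e-14). In full medium it had 89.6, 107 and 102 FPKM in Δnit-2, against 26.7, 23.4, 26.3, 23.8 and 23.5 FPKM in wild type (1.96 ± 0.21, limma adjusted p = 6.9e-11). Isoleucine, proline and tryptophan gave 1.90, 1.28 and 2.55 log2 units. The strains did not overlap on any of these media. In full medium NCU04805 and NCU06128 followed acw-12, higher in Δnit-2 by 1.41 and 1.16 log2 units.

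Proline was the medium on which the most members changed in Δnit-2: 25 (10.8%) were lower and 6 (2.60%) higher, against 4.37% and 4.66% of all entries. NCU16993 had 1.83, 2.47 and 1.495 FPKM in Δnit-2 and 7.61, 10.6 and 11.3 FPKM in wild type (-1.88 ± 0.17, limma adjusted p = 8.1e-14). NCU00451 had 49.0, 26.6 and 24.4 FPKM against 123, 119 and 109 FPKM (-1.85 ± 0.29, limma adjusted p = 3.3e-07). The merged entry of NCU09761 and NCU09762 was at 13.2 ± 3.16 against 48.3 ± 3.82 FPKM. ncw-6 was lower and acd-1 higher on proline, by -1.23 and 1.09 log2 units. On the other media the members were called about as often as all entries: 7 in full medium (3.03% against 2.63%), 17 on nitrate (7.36% against 9.01%), 8 on isoleucine (3.46% against 5.2%) and 18 on tryptophan (7.79% against 6.8%). NCU02480 was lower in Δnit-2 in full medium and on isoleucine, proline and tryptophan, by -1.12, -1.48, -1.56 and -1.41 log2 units. NCU03731 was higher on nitrate, isoleucine and proline, by 1.74, 1.19 and 1.13. On nitrate NCU08549 (25.0 ± 4.64 against 5.89 ± 0.279 FPKM) and NCU04497 (mean 29.4 against 7.997 FPKM) were higher, and on tryptophan NCU03255 was lower (39.6 ± 3.23 against 141 ± 12.8 FPKM; SD, n = 3 each). The conidia marker sum lay higher in Δnit-2 on nitrate, at 2272 to 2971 FPKM against 1302 to 1887 FPKM in wild type. On proline it overlapped (1055 to 1721 against 1555 to 1639 FPKM), while con-6, con-8 and eas were lower in Δnit-2 without overlap, eas at 19.5 to 30.4 against 60.8 to 131 FPKM. Their part was not tested. Within Δnit-2, proline against nitrate gave 1 call (0.433% against 1.27%), the merged entry of NCU07317 and NCU07318. It was at 539 ± 245 FPKM on proline and 1090.0 ± 395 FPKM on nitrate, and the marker sum was lower on proline without overlap. At an unadjusted p under 0.05 in limma, 66 members differed, a count with no share over all tested entries beside it.

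The libraries labelled Δnit-4 differed from wild type in 15 members on nitrate (6.49%, against 7.2% of all entries) and in 6 without nitrogen (2.60% against 5.33%). acd-1 had 93.3, 39.6 and 33.0 FPKM in the libraries labelled Δnit-4 on nitrate, and 14.9, 18.1 and 17.0 FPKM in wild type (1.52 ± 0.31, limma adjusted p = 9.6e-05). NCU01258 had 211, 113 and 93.4 against 40.7, 37.6 and 44.3 FPKM (1.65 ± 0.18), and NCU09683 had 5.44, 8.66 and 10.3 against 36.1, 21.8 and 28.2 FPKM (-1.71 ± 0.31). The first of the libraries labelled Δnit-4 was the highest of them in acd-1 and NCU01258, and without it 5 members were called on nitrate. On nitrate the conidia markers summed to 3019 to 5383 FPKM in the libraries labelled Δnit-4 and 1302 to 1887 FPKM in wild type. eas was at 1725 to 3121 against 105 to 229 FPKM, con-6, con-10 and con-13 were also higher without overlap, and the part of spores was not tested. Without nitrogen NCU16993 was at 28.03 ± 1.14 FPKM in the libraries labelled Δnit-4 (n = 3) and 9.24 ± 0.990 FPKM in wild type (n = 6), 1.51 ± 0.15 higher (limma adjusted p = 1.3e-11). The mitochondrial entry of NCU16006 and NCU16007 was lower, at 4.24 ± 0.375 against 12.7 ± 1.31 FPKM, and that of NCU16008 to NCU16012 was also lower, by -1.26 log2 units. The mitochondrial share of all FPKM was 0.00529 to 0.00894% in the libraries labelled Δnit-4 and 0.0120 to 0.0249% in wild type, and the part of that difference was not tested.

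Loss of nmr in full medium, where NMR holds NIT-2 back, gave 22 members lower (9.52%) and 7 higher (3.03%), against 2.09% and 2.31% of all entries. NCU16993, lower in Δnit-2 on 4 media, was higher here, with 51.8, 45.2 and 52.1 FPKM in Δnmr, against 8.72, 9.26, 7.68, 6.73 and 7.24 FPKM in wild type (2.51 ± 0.15, limma adjusted p = 7.3e-21). fkr-3 had 30.6, 34.7 and 27.6 FPKM against 5.26 to 7.65 FPKM (2.05 ± 0.18, limma adjusted p = 2.3e-14), and acu-9 had 197, 171 and 145 FPKM against 44.3 to 71.6 FPKM (1.62 ± 0.23, limma adjusted p = 1e-07). cat-1 fell to 3.83, 8.53 and 6.56 FPKM, against 16.3 to 26.2 FPKM in wild type (-1.52 ± 0.22, limma adjusted p = 1.5e-07). For each of these genes Δnmr and wild type did not overlap. ccg-13 had 0.610, 34.2 and 11.3 FPKM in Δnmr and 17.9 to 104 FPKM in wild type, which overlap. Its difference of -2.21 ± 0.81 (limma adjusted p = 0.035) was -0.98 without Δnmr library 1 and then had an adjusted p of 0.52. The mitochondrial NCU16003 had 0.660, 1.15 and 0.775 FPKM in Δnmr against 4.53 to 12.7 FPKM in wild type (-2.07 ± 0.24). The whole share of mitochondrial transcripts was 0.00297 to 0.00417% in these Δnmr libraries and 0.00858 to 0.0210% in wild type, and the part of that difference was not tested. The sum of conidia markers was 679 to 1251 FPKM in Δnmr and 1088 to 2909 FPKM in wild type, with 5 of 6 markers above 0 in all libraries of each group. These sums overlap, and single markers went both ways without overlap: eas (100.3 to 111 against 23.4 to 85.1 FPKM) and con-8 were higher in Δnmr and con-10 was lower (0.656 to 1.19 against 1.30 to 3.21 FPKM). Their part was not tested either.

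Without nitrogen Δnmr had 13 members lower (5.63%) and 5 higher (2.16%) than wild type, against 3.72% and 1.52% of all entries. NCU01258 had 575, 405 and 531 FPKM in Δnmr, against 118 to 173 FPKM in wild type with a median of 128 FPKM (1.85 ± 0.16, limma adjusted p = 1.6e-14). The mitochondrial NCU16003 was at 1.10 ± 0.352 FPKM in Δnmr and 11.96 ± 3.24 FPKM in wild type (-2.60 ± 0.23), in libraries whose whole mitochondrial share was 0.00377 to 0.00528%, against 0.0120 to 0.0249% in wild type; its part was not tested. NCU00260 was lower, at 9.91 ± 0.728 FPKM (n = 3) against 41.8 ± 5.81 FPKM (n = 6). NCU02932, the member farthest from the other media on arginine, was at 49.3 ± 21.6 FPKM in Δnmr and 157 ± 64.4 FPKM in wild type (-1.63 ± 0.26). Within Δnmr, 32 members (13.9%) were higher without nitrogen than in full medium and 1 (0.433%) was lower, against 4.24% and 9.73% of all entries. NCU01258 had 575, 405 and 531 FPKM without nitrogen and 54.5, 48.9 and 45.0 FPKM in full medium (3.31 ± 0.18, limma adjusted p = 4.2e-23). grp78 had 750, 842 and 696 FPKM without nitrogen and 314, 335 and 310 FPKM in full medium (1.25 ± 0.16, limma adjusted p = 1.8e-09). NCU08549 and NCU16742 were higher as well, NCU16742 by 2.05 log2 units, and so were cat-1, acd-1 and al-2, by 1.45, 1.19 and 1.04 log2 units. The sum of conidia markers was also higher, at 2241 to 4853 FPKM without nitrogen and 679 to 1251 FPKM in full medium, with con-6, con-10, eas and ccg-1 higher without overlap. Their part was not tested.

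Complex I genes were rarely called in the deletion strains. In the 13 comparisons of a deletion strain with wild type, 0 of the 29 complex I entries were called in 12, and 1 was lower, in Δamn-1 on mannose. Of all tested entries 0.584% (Δamn-1 on isoleucine) to 16.9% (Δamn-1 on mannose) were called either way. With 29 entries and such shares, few calls are given as a description. At an unadjusted p under 0.05 in limma, 0 to 23 of the complex I entries differed. The most were 23 in the libraries labelled Δnit-4 without nitrogen and 20 in Δnit-2 in full medium. The median differences of complex I lay between -0.32 and 0.24 log2 units, where arginine against full medium gave -1.28.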

How the data were processed

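FPKM values were deposited by the authors per sample and as 1 joint table of 86 libraries normalized together. Reads were aligned with HISAT2 2.1.0 and the FPKM made with Cufflinks and Cuffnorm 2.2.1, per the submitters' processing notes; build and strand setting were not given in the sources used here. Coordinates are those of the deposited files, on supercontigs. No read counts were given, so no count test was run.

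From the joint table, means of log2(FPKM + 1) gave the 231 genes. Columns were used by group, because the number in a column name often differs from the number in the label. Entries with at least 1 FPKM in at least 3 libraries (8558) were fitted with limma 3.58.1 in R 4.3.3, with 1 mean per group over all 27 groups, a trend in the variance, and Benjamini-Hochberg adjustment over all entries. A call is an adjusted p under 0.05 with a difference of at least 1 log2 unit of FPKM + 1, a scale that understates the change of low genes. The fit was checked on simulated data. P-values measure the spread between samples labelled as biological replicates. Depth is an estimate, derived from the width of the confidence interval that the authors deposited beside each FPKM.

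The genes, the lists and the tests were chosen with earlier results of these data known. Named genes are members with a symbol (30 by distance), the 5 widest distances, the 3 on either side of the limit, complex I, and in each deletion comparison the 3 called members with the largest differences. Others were named after their values were seen, among them pex11, gpit-1, NCU02480, NCU03731 and, in deletion strains, members with a symbol. Lists were taken by symbol, leaving out genes that are not subunits, though rpn-4, which is not a subunit, stayed in the proteasome list. Conidia markers were con-6, con-8, con-10, con-13, eas and ccg-1. Gene symbols came from the RefSeq table of gene names (assembly NC12), in which 99.99% of identifiers matched. Replicate pairs were never identical: over 100 pairs, chi-square divided by its degrees of freedom was at least 3.48. Protein and promoter sequences were not analysed here. Alternatives were another pseudocount, no filter, median-ratio scaling, the per-sample values, a replicate block and leaving out each library.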

Additional observations from a re-analysis of the deposited data

Results flagged for a closer look

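Among 70 groups of 4 or more libraries of 35 of the named members, 2 held a library far from the others, where chance marks about 1 in 20. ccg-13 in wild type full medium had 104 FPKM in library 4, against 17.9 to 42.4 FPKM in the other 4. nup-9 in wild type without nitrogen had 15.5 FPKM in library 4, against 12.45 to 13.42 FPKM in the other 5.

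For several members with leading calls the effect of a deletion differed between media by limma's test of the difference. The Δnit-2 effect on NCU08549 was 1.90 on nitrate and -0.07 in full medium, a difference of 1.97 log2 units. On NCU16993 it was -1.61 on isoleucine and -0.53 in full medium, a difference of -1.07, and on NCU00451 it was -1.85 on proline and 0.33 in full medium, a difference of -2.18. The Δamn-1 effect on ccg-13 was -5.10 on mannose, and against it the effects on isoleucine (-0.42), proline (0.56) and tryptophan (0.10) differed by 4.68, 5.66 and 5.20. These 3 differences share the uneven wild type mannose libraries, of which library 2 had 24.0 FPKM. In the libraries labelled Δnit-4 the effect on acd-1 was 1.52 on nitrate and -0.12 without nitrogen, a difference of 1.65. The Δnmr effect on NCU01258 was 1.85 without nitrogen and 0.06 in full medium, a difference of 1.79.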

How the results depend on the processing

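The number of genes under the rule was 304 with a pseudocount of 0.1, 211 with median-ratio scaling, 219 with the per-sample values and 256 with no minimum in full medium. Among groups with the same range of mitochondrial share it was 354, since fewer groups had to lie above arginine. Leaving out 1 library gave 189 to 289. With another pseudocount 17 of 17 counts, and with no filter 16 of 16, stayed within 1.5 times. The same replicate numbers did not pair the libraries: in 0 of 16 comparisons were all 3 same-numbered correlations of deviations over 0.1. With the replicate block on the per-sample values, 10 of 16 counts stayed within 1.5 times. The others were 11 for Δnit-2 in full medium, 0 for Δamn-1 on isoleucine and on tryptophan, 17 for the libraries labelled Δnit-4 without nitrogen, 11 for Δnmr without nitrogen, and 0 for Δnit-2 on proline against nitrate. Without the block these were 0 for Δamn-1 on both media, 1 for the libraries labelled Δnit-4 without nitrogen and 0 for Δnit-2 on proline against nitrate, which was also 0 with the per-sample values in the full fit. With wild type full medium libraries 1 to 3 alone, Δnit-2 gave 11. With wild type starved libraries 1 to 3 alone, the libraries labelled Δnit-4 gave 17, and with libraries 4 to 6 alone Δnmr gave 46. Leaving out 1 library gave 0 to 3 for Δamn-1 on tryptophan, 5 to 23 for the libraries labelled Δnit-4 on nitrate (5 without the first, 23 without the third), 17 to 28 for Δnmr without nitrogen (28 without wild type library 4) and 0 to 1 for Δnit-2 on proline against nitrate. The cause of these changes was not tested. Of 39 results of named members, 4 lost their call under some setting (NCU02888, NCU09409, ccg-13 in Δnmr, and NCU07317/NCU07318) and 0 reversed. In arginine libraries 15 members had under 20 estimated fragments in some library, which limits how low their levels can be placed.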
